A study of Mus musculus with 2 samples.

Results

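Osteopontin (*Spp1*) and 9 genes that are named with it as marks of lipid-associated macrophages (*Gpnmb*, *Trem2*, *Apoe*, *Fabp5*, *Lpl*, *Lgals3*, *Cd9*, *Fn1* and *Fabp4*) were followed across the synovial CD45+CD11b+ cells of arthritic mice. The genes were taken by symbol from the deposited gene table, in which all 10 were found among 32524 genes. The rule used the symbols only, but the 10 genes were chosen with earlier results of these data known. The levels were read in every rebuilt cluster of cells and in both libraries. Of the 10 genes, 9 reached a mean level of 5 CPM (UMIs, that is counted RNA molecules, per 1000000 of the summed cells) in the main myeloid cell compartment, and *Fabp4* did not.

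Wild-type C57BL/6 mice, 7 to 10 weeks old at the start, received 1 mg β-glucan (the trained group) or PBS (the control group) by intraperitoneal injection, and arthritis was induced in both groups 7 days later. Cells of the hind paws of 4 mice per group were sorted at day 17 of arthritis and sequenced as 1 droplet-based 3′ library per group. The design text gives K/BxN serum transfer arthritis (K/BxN-STA), in which transferred serum antibodies start the joint disease, whereas the treatment label of the samples describes monoclonal antibodies with lipopolysaccharide. K/BxN-STA is used here, and which of these the cells came from cannot be settled from the counts. No mice without arthritis were measured, so the levels are those of arthritic joints only. After the filter of at least 500 genes and at most 10% mitochondrial counts, 5696 β-glucan and 4553 PBS cells were kept, with a median of 12457.5 and 14475 UMIs (unique molecular identifiers) per cell. The libraries shared 7 barcodes. With 1 library of pooled mice per group there is no replicate, no test and no p-value. Intervals are exact at 95% and cover counting error only. Where 2 values stand side by side, the β-glucan library is given first and the PBS library second.

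The cells formed 17 clusters when the 10 genes were left out of the clustering. The main myeloid cell compartment comprised 9 of them with 4602 β-glucan and 3659 PBS cells. Macrophage-like cells made up 6 clusters, named here by number and leading genes: cluster 0 (*Ms4a7*, *Ctsd*, *Cx3cr1*), cluster 1 (*Ednrb*, *Cd163*, *Cd209f*), cluster 2 (*Vsig4*, *S100b*, *Lyve1*), cluster 3 (*Fxyd2*, *Aqp1*, *Tppp3*), cluster 5 (*Ccl8*, *H2-Aa*, *Mrc1*) and cluster 9, which was led by the stress and immediate-early gene *Atf3* and by *Cd83* and *Cxcl2*. Antigen-presenting cell (APC)-like cells made up cluster 4 (*Retnla*, *Arg1*, *Ccl17*, *Cd209a*) and the small cluster 16 (*Clec9a*, *Xcr1*). Cluster 7 (*Chil3*, *Plac8*, *Ly6c2*) stayed unnamed, since only 1 marker of its best-scoring type was found in 25% of its cells, and its median depth was 4322 UMIs. B, T and natural killer cells, neutrophils, mast cells, stromal cells, cycling cells and a cluster of mixed endothelial and mural genes lay outside the compartment although the sort was for CD45+CD11b+ cells. The cluster named natural killer cells by its best score also had all 6 T cell markers in at least 25% of its cells. They summed to 1433 and 1897 CPM there, so the name covers cells with T cell genes as well.

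Lipid-associated macrophages have been described in fat, atherosclerotic plaque, brain and injured tissue as cells that take up lipid-rich debris through Trem2, a receptor that signals through the adaptor Tyrobp, and that hand cholesterol on through apolipoprotein E. Osteopontin and fibronectin (*Fn1*) are secreted matrix proteins that are bound by integrins and, for osteopontin, Cd44. *Lpl* encodes lipoprotein lipase, which frees fatty acids from lipoproteins, and *Fabp4* and *Fabp5* encode carriers of fatty acids inside cells. *Gpnmb* encodes a glycoprotein of lysosomes and the cell surface, *Lgals3* encodes galectin-3, a lectin that binds galactosides, and *Cd9* encodes a tetraspanin of the cell membrane. Osteopontin is also made by osteoclasts and laid down in bone matrix.

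In GRCm39 the genes lie at chr5:104582165-104589235 (*Spp1*, 7 exons in the canonical transcript), chr6:49013426-49047863 (*Gpnmb*), chr17:48653429-48661175 (*Trem2*), chr7:19430034-19434947 (*Apoe*), chr3:10077602-10081674 (*Fabp5*), chr8:69284603-69360100 (*Lpl*), chr14:47605208-47623624 (*Lgals3*), chr6:125437210-125471778 (*Cd9*), chr1:71624673-71692419 (*Fn1*, 46 exons) and chr3:10268785-10273737 (*Fabp4*). The promoters of 3 of them are shown because their levels followed different patterns over the clusters: *Spp1* was a gene of few cells in several macrophage clusters, *Trem2* was present across macrophages, and *Gpnmb* was highest in stromal cells and cluster 0. Each window covers 250 bases before and 50 after the start of the annotated canonical transcript in GRCm39 (GENCODE), 5′ to 3′ on the strand of the gene, with matches in capitals. These windows are chr5:104581915-104582214 (plus strand), chr6:49013176-49013475 (plus) and chr17:48653179-48653478 (plus).
*Spp1*: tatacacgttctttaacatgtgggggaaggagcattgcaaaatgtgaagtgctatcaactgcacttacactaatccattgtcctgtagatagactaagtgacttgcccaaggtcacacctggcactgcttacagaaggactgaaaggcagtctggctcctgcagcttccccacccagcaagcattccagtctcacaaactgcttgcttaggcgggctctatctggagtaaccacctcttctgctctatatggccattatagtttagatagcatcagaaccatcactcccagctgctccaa
*Gpnmb*: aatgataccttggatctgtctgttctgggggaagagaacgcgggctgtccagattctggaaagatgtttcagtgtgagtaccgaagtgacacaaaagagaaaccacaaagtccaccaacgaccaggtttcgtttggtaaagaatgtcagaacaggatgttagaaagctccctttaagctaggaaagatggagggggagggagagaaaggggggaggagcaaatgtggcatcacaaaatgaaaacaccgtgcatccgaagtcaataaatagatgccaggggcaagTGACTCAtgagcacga
*Trem2*: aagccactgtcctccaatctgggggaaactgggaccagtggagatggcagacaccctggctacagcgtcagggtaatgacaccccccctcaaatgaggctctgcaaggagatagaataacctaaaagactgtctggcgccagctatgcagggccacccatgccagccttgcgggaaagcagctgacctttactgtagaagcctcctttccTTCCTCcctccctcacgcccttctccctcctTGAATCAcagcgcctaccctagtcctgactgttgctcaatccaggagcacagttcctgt
The letters searched on both strands were TGANTCA (the site of AP-1, the Fos and Jun factors) and GAGGAA (the core bound by PU.1, a factor of myeloid cells). TCATGTG (the M-box of the MiT/TFE family) and CACGTG (the CLEAR-type form of the E-box) were also searched, but no other E-box letters. The AP-1 letters were in the windows of 3 of the 10 genes, *Gpnmb* and *Trem2* among them, and in 7.14% of 21770 protein-coding promoters of the same length. The PU.1 letters were in those of 3 of the 10, *Trem2* and *Lpl* among them, against 27.5% of all promoters. None of the 10 windows held the M-box (3.33% of promoters) or the CLEAR-type E-box (7.81%). A match is a description of the letters and not a bound site. The windows of *Apoe*, *Lpl* and *Lgals3* lie inside the annotated gene, since their canonical transcripts start there. In GENCODE, *Spp1* overlaps *Gm42793* and *Cd9* overlaps *Gm68847* on the same strand, so UMIs of *Spp1* and *Cd9* could be split between the overlapping genes.

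*Spp1* was highest in the macrophage-like clusters 9 and 0 and low in cluster 1. The level in cluster 9 was 657 CPM with β-glucan and 906 CPM with PBS. In cluster 0 it was 646 and 792 CPM, so the ranges of these clusters overlapped. Cluster 3 followed with 431 and 477 CPM, below both libraries of clusters 9 and 0. The *Ednrb* and *Cd163* cells of cluster 1 had 48.8 and 14.3 CPM. Between cluster 9 and cluster 1, *Spp1* differed 22.3-fold over both libraries, 13.5-fold with β-glucan and 63.3-fold with PBS. Of the compartment's *Spp1* UMIs, cluster 0 alone held 46.5% (β-glucan) and 44.5% (PBS). Stromal cells reached 337 and 320 CPM, but 5 cells held 85.3% and 98.1% of these UMIs. B, T and natural killer cells together had 32.7 and 79.7 CPM, which is 10.9% and 25.5% of the level of the compartment. With PBS this rested on few cells, since single cells held 111 of 134 *Spp1* UMIs in the B cell cluster and 78 of 146 in the T cell cluster. For the other 8 genes above 5 CPM, this lymphoid level lay between 14.2% (*Fn1*, PBS) and 42.1% (*Fabp5*, β-glucan) of that of the compartment.

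*Spp1* was a gene of few cells. With macrophage-like cells thinned to 5000 UMIs, 28.6% of β-glucan and 28.3% of PBS cells had an *Spp1* UMI, and the 10% of cells with most held 80.1% and 81.6% of all *Spp1* UMIs. The median cell had 0 and the highest 131 and 137. Thinned to 2000 UMIs, 17.6% and 17.3% of compartment cells had an *Spp1* UMI, against 3.47% and 2.15% of B cells. T and natural killer cells are no background for *Spp1*, since they can make osteopontin when activated. The thinned cells numbered 3710 with β-glucan and 2680 with PBS, after 209 and 106 shallower cells had been left out.

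*Fn1*, the other secreted matrix gene, was likewise high in cluster 9 and lowest in cluster 1, and it was also high in cluster 2. Cluster 9 had 4249 CPM with β-glucan and 4044 CPM with PBS. The *Vsig4* and *S100b* cells of cluster 2 had 3256 and 3969 CPM. Cluster 1 had about 171 CPM over both libraries, so that *Fn1* varied 24.4-fold among macrophage-like clusters, 24.7-fold and 23.8-fold in the single libraries. Stromal cells, a textbook source of fibronectin, had 4675 and 4118 CPM, which overlapped the range of cluster 9. *Spp1* and *Fn1* were both high in the cluster in which stress and immediate-early genes were high. The 7 genes of that list summed to 4573 and 4515 CPM in cluster 9 and to at most 1408 CPM in any other cluster of the compartment.

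*Trem2* had the smallest range of the 10 genes across macrophages. It was highest in cluster 0 with 856 and 964 CPM, then in cluster 2 with 737 and 840, cluster 9 with 623 and 639, cluster 5 with 526 and 579 and cluster 3 with 499 and 521. None of these neighbours overlapped in range over the libraries. Cluster 1 had 284 and 324 CPM, and stromal cells had 13.6 and 20.6 CPM. The fold between cluster 0 and cluster 1 was 3.00, and 84.9% and 87.1% of thinned macrophage-like cells had a UMI.

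*Apoe* set clusters 0 and 5 apart from the other macrophages. Cluster 0 had 10717 and 12702 CPM, and cluster 5 had 8959 and 9024 CPM. The *Fxyd2* and *Aqp1* cells of cluster 3 had 926 and 807 CPM, 13.3-fold below cluster 0 over both libraries. B, T and natural killer cells had 1383 and 1371 CPM, and 30.5% and 26.1% of them had a UMI when thinned to 2000 UMIs (median depth 6004 and 6895 UMIs). In the compartment, with a median depth of 13033 and 15490 UMIs, these shares were 68.6% and 60.2%. The *Apoe* level in cluster 3 was below that of B, T and natural killer cells, but their level rested on few cells. The 5 highest cells held 47.92% and 66.44% of the *Apoe* UMIs in B cells and 63.64% and 69.04% in T cells. In natural killer cells they held 83.34% and 95.83%, against 14.99% and 20.01% in cluster 3. The comparison therefore cannot show whether *Apoe* in cluster 3 exceeded the level of cells that should lack the gene.

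*Gpnmb* and *Fabp5* shared cluster 0. *Gpnmb* had 68.4 and 74.5 CPM there, 34.0 and 19.1 in cluster 5, and between 5.87 and 22 CPM in the other macrophage-like clusters. Of its UMIs in the compartment, 59.6% (β-glucan) and 63.0% (PBS) were in cluster 0. Its highest level of all was in stromal cells, at 172 and 155 CPM. *Fabp5* had 142 and 141 CPM in cluster 0 and 119 and 102 CPM in cluster 5, but also 83.8 and 174 CPM in the APC-like cluster 4.

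*Lpl* was highest in the APC-like cluster 4, with 482 and 513 CPM, and in cluster 5, with 447 and 521 CPM, and these ranges overlapped. *H2-Aa*, an MHC class II gene, was among the leading genes of cluster 5. Cluster 2 had 46.5 and 64.6 CPM, 8.81-fold below cluster 5 over both libraries.

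*Lgals3* and *Cd9* were both highest in cluster 3, the *Fxyd2* and *Aqp1* cells that had little *Apoe*, but in a finer clustering the highest was a cluster of PBS cells alone. *Lgals3* had 2769 and 3125 CPM in cluster 3 and 2300 and 3033 CPM in cluster 4, overlapping in range. *Cd9* had 1573 and 1862 CPM in cluster 3, above stromal cells at 1177 and 1157 CPM. The lowest macrophage-like cluster was cluster 2 for *Lgals3*, with 718 CPM over both libraries, and cluster 1 for *Cd9*, with 289 CPM.

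*Fabp4* was nearly absent from the macrophages of both libraries. Cluster 15, an unnamed cluster of 110 cells led by *Acta2*, *Tagln* and *Adgrl4*, had 1244 and 3708 CPM and held 76.4% and 86.6% of all *Fabp4* UMIs. With PBS, a single cell held 919 of its 1746 *Fabp4* UMIs and 5 of 45 cells held 88%, so the difference between the libraries there rested on few cells. Within it, the 44 cells with more endothelial than mural marker UMIs had 4676 CPM, and the 30 cells with more mural than endothelial marker UMIs had 323 CPM. All 5 genes of the adipocyte list together summed to 1.14 and 40.4 CPM in cluster 15. The compartment had 4.03 CPM (3.56 to 4.55) with β-glucan and 4.14 CPM (3.64 to 4.69) with PBS, and lymphoid cells had 2.15 and 3.44 CPM. The macrophage-like clusters had 3.62 and 1.84 CPM (198 and 81 UMIs), with the β-glucan library higher in each of the 6. The counting intervals of clusters 1, 2, 5 and 9 included 0. Of 9768 genes with at least 5 CPM, which leave out *Fabp4*, 10.9% were higher in each of the 6. Over the whole compartment, *Fabp4* was close to the level of cells that should lack it. Cluster 7 was higher, at 10.1 and 30.8 CPM, but 5 cells held 94.1% and 73.3% of its 17 and 45 UMIs. With PBS, clusters 4 and 7 held 49.6% and 18% of the compartment's *Fabp4* UMIs.

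**Figure D1:**
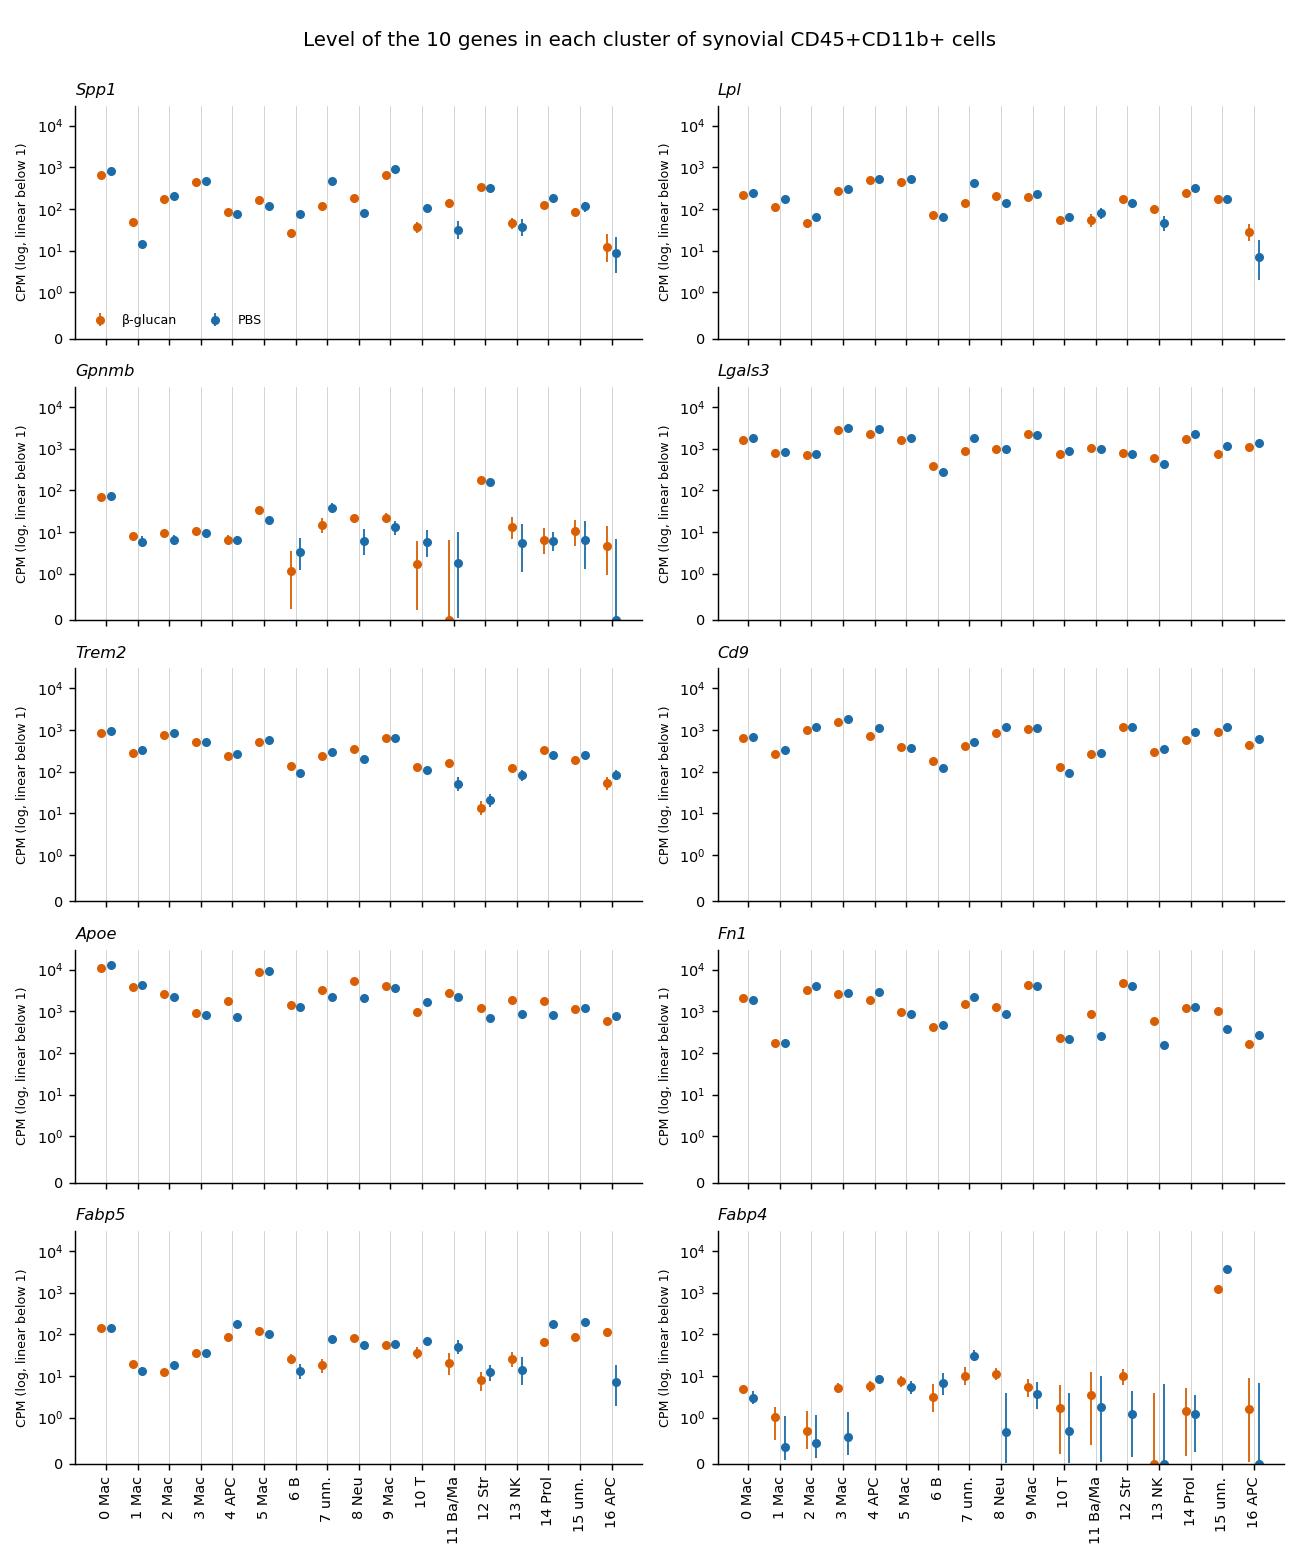
Level of each of the 10 genes in CPM (log axis, linear below 1) in the 17 clusters, with 1 point per library (β-glucan orange, PBS blue) and exact 95% Poisson intervals. *Spp1* ran from 14.3 to 906 CPM over the macrophage-like clusters (Mac), *Apoe* reached 12702 CPM in cluster 0, and *Fabp4* exceeded 1000 CPM in cluster 15 alone.

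The 10 genes therefore did not share one set of cells, and their correlations within cells were uneven. Over the thinned macrophage-like cells, Pearson's r of log counts was 0.54 with β-glucan and 0.56 with PBS for *Cd9* and *Fn1*, the highest of the 45 pairs. For *Apoe* and *Cd9* it was -0.39 and -0.46, and for *Apoe* and *Fn1* -0.19 and -0.29. The points are cells of 1 library each that share depth after thinning and come from 6 clusters. Within single clusters and libraries, r for *Cd9* and *Fn1* lay between 0.30 and 0.58 and for *Apoe* and *Cd9* between -0.45 and -0.09. For *Spp1*, no pair with another of the 10 genes exceeded 0.29 in either library.

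Cells with more *Spp1* nevertheless carried more of most of the other genes. Macrophage-like cells with at least 5 *Spp1* UMIs per 5000 made up 358 β-glucan cells (9.65%) and 261 PBS cells (9.74%), and cluster 0 held 53.4% and 55.9% of them. Compared with cells without an *Spp1* UMI, *Fn1* was 3417 against 1495 CPM with β-glucan and 3539 against 1528 CPM with PBS. *Fabp5* was 139 against 36.2 CPM and 126 against 40.5 CPM. *Lpl* differed least, with 217 against 161 CPM and 267 against 228 CPM.

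**Figure D2:**
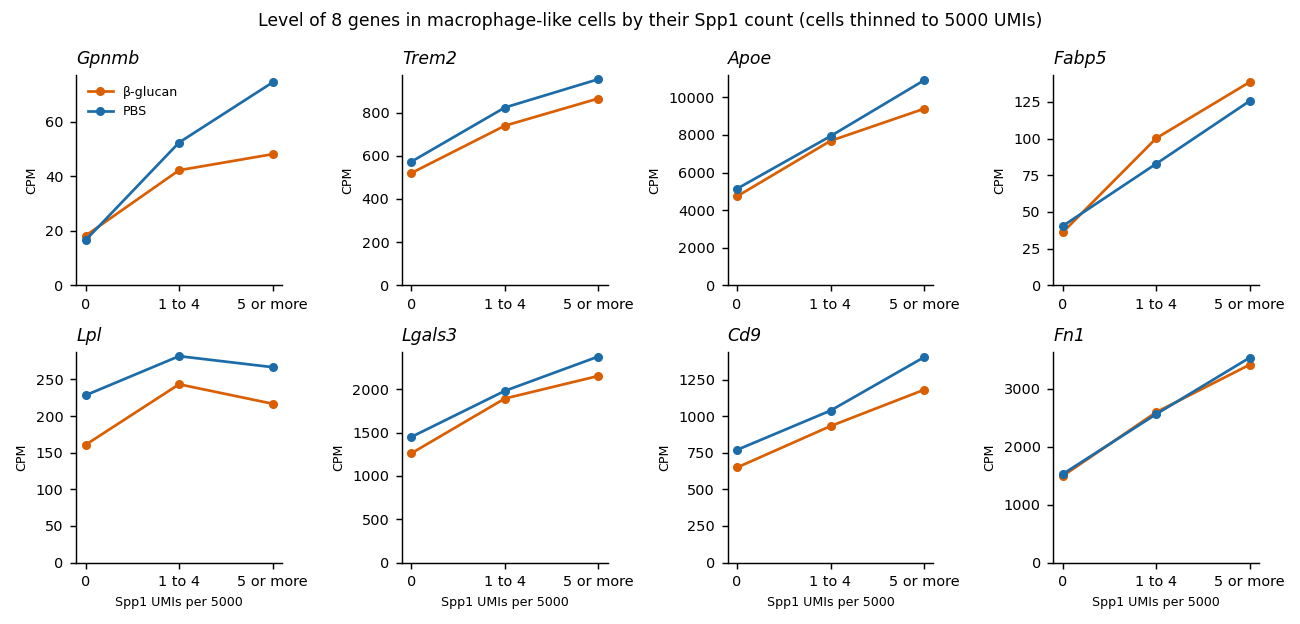
Level (CPM, linear axis from 0) of 8 genes in macrophage-like cells thinned to 5000 UMIs, by the number of *Spp1* UMIs per cell (0, 1 to 4, 5 or more), with 1 line per library. Each of the 8 genes was higher in cells with 5 or more *Spp1* UMIs than in cells with 0 in both libraries; with β-glucan, *Lpl* was at 161 and 217 CPM and *Fabp5* at 36.2 and 139 CPM.

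Part of this followed the clusters, and part was seen inside a single cluster. In cluster 0, *Apoe* was 1.60-fold higher with β-glucan and 1.64-fold higher with PBS in the *Spp1*-rich cells, and *Gpnmb* was 1.75-fold and 1.90-fold higher. In cluster 3, *Fn1* was 2.16-fold and 2.21-fold higher and *Lpl* was 0.92-fold and 0.89-fold. In cluster 9, where *Spp1* was highest, *Apoe* was 0.59-fold with β-glucan and 1.02-fold with PBS, and *Lpl* was 0.61-fold and 0.60-fold, from 44 and 26 *Spp1*-rich cells. In cluster 0, *Lpl* was 1.28-fold and 1.56-fold. *Lpl* was thus higher in the *Spp1*-rich cells of cluster 0 and lower in those of clusters 3 and 9, in both libraries, and this difference was not tested.

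The genes most like each of the 10 over these cells were taken from 6286 genes by the lower r of the libraries. For *Spp1* these were *Lyz2*, *Fn1*, *Arhgap24*, *Cd9* and *Clec4d*, with r from 0.29 down to 0.24. For *Apoe* they were the lysosomal genes *Ctsb* (0.50) and *Psap* (0.41), the pore-forming protein gene *Mpeg1* (0.46), *Selenop* (0.44) and *Lyz2* (0.41). For *Gpnmb* they were *Fabp5* (0.29), *Mpeg1* (0.25), *Apoe* (0.22), *Ctsb* (0.22) and *Psap* (0.21). *Lgals3* was most like *Vim* (0.54), *S100a11* (0.42) and *Anxa2* (0.41), *Fn1* like *Srgn* (0.61), *Cd9* (0.54) and *Pmepa1* (0.49), and *Cd9* like *Fn1* (0.54), *Fxyd5* (0.50) and *Crip1* (0.49). *Trem2* was most like *Lyz2* (0.42), *Tmsb4x* (0.40) and *Ctss* (0.38), and *Fabp5* like *Mpeg1* (0.33), *Apoe* (0.29) and *Ctss* (0.25). *Lpl* was most like the MHC class II pathway genes *Cd74* (0.24), *H2-Aa* (0.22) and *H2-Ab1* (0.21). No gene reached 0.20 with *Fabp4*. In counts this sparse, the lower of these values say little.

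The comparison of β-glucan-trained with control arthritic mice asks whether training left a mark in synovial myeloid cells. In the compartment, 4 of the 10 genes were lower with β-glucan by a log2 ratio of at least 0.32, the size taken here as a difference, and none was higher by that much. Of all 9806 genes with at least 5 CPM, 3.09% were lower and 3.89% higher by that size. The 10 genes were chosen with earlier results of these data known, so their counts beside such shares are a description and not a test. In all, 2 of the 10 genes were higher and 8 were lower, where 57.7% of all genes with at least 5 CPM were higher. The median log2 ratio of the 10 genes was -0.14 beside 0.03 for all genes with at least 5 CPM. The 8 lower genes and this median include *Fabp4* (-0.04), which did not reach 5 CPM. *Lpl* had 227 CPM with β-glucan and 306 CPM with PBS, a log2 ratio of -0.43 (-0.46 to -0.40). *Fabp5* had 67.5 and 88.5 CPM (-0.39, -0.45 to -0.33). *Cd9* had 763 and 964 CPM (-0.34, -0.36 to -0.32), and *Lgals3* had 1585 and 2001 CPM (-0.34, -0.35 to -0.32). All 4 genes were present in the APC-like cluster 4 as well as in macrophages.

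The other genes differed less. *Fn1* had 1968 and 2302 CPM (log2 ratio -0.23). *Spp1* had 299 and 312 CPM (-0.06) and *Trem2* had 545 and 560 CPM (-0.04). *Spp1* was at -0.39 with equal weight per cluster and at -0.23 with equal weight per cell. *Gpnmb* had 24.7 and 20.7 CPM (0.25, 0.15 to 0.36) and *Apoe* had 4879 and 4414 CPM (0.14, 0.14 to 0.15), the 2 genes that were higher with β-glucan. With equal weight per cell *Gpnmb* was at 0.0015, and in cells thinned to 5000 UMIs it and *Apoe* were both at 0.04. No counting interval other than that of *Fabp4* reached 0, but the spread between mice is unknown.

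The makeup of the compartment moved with these ratios. Cluster 4 held 8.17% of the compartment's cells with β-glucan and 16.4% with PBS, and 12.6% and 23.7% of its UMIs. With PBS it held 46.6% of the compartment's *Fabp5* UMIs, 39.9% of *Lpl*, 36% of *Lgals3*, 30.4% of *Fn1* and 27.7% of *Cd9*. With β-glucan these shares were 15.7%, 26.8%, 18.3%, 11.9% and 12%. Without cluster 4, *Lpl* was still lower (log2 ratio -0.34), *Cd9* was at -0.25, *Lgals3* at -0.18 and *Fn1* at -0.08, and *Fabp5* was on the other side at 0.07. This *Fabp5* value includes a single β-glucan cell of cluster 0 with 257 of that cluster's 2000 UMIs.

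**Figure D3:**
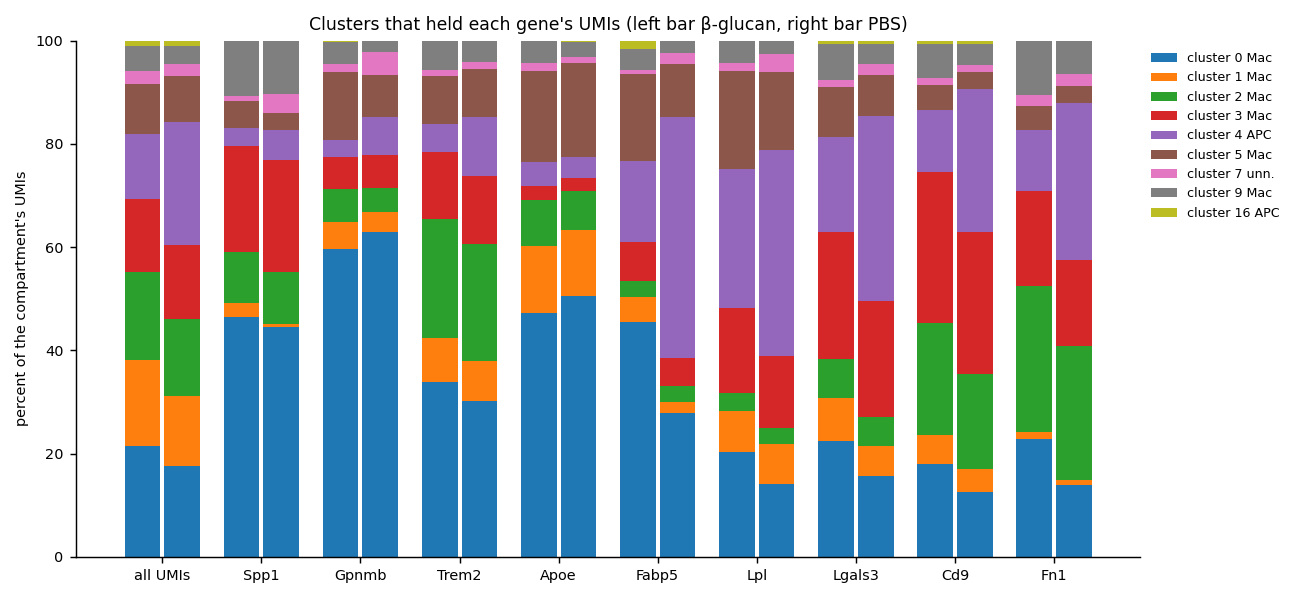
Percent of the compartment's UMIs that came from each of its 9 clusters, for all genes together and for 9 genes, with the β-glucan library as the left bar and the PBS library as the right bar. The part of cluster 4 (APC) was smaller with β-glucan for all UMIs (12.6% against 23.7%) and for *Fabp5* (15.7% against 46.6%).

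Over the 6 macrophage-like clusters, no gene of the 10 above 5 CPM had a log2 ratio of 0.32 or more either way. *Lpl* had 193 CPM with β-glucan and 238 CPM with PBS (log2 ratio -0.30, -0.34 to -0.26). *Cd9* had 784 and 932 CPM (-0.25), *Spp1* had 341 and 388 CPM (-0.19), *Lgals3* had 1505 and 1680 CPM (-0.16) and *Trem2* had 607 and 670 CPM (-0.14). *Gpnmb* at 28.0 and 25.1 CPM (0.16) and *Fabp5* at 66.0 and 62.2 CPM (0.09) were on the higher side. For *Fabp5*, 1 of 1043 β-glucan cells of cluster 0 held 257 of that cluster's 2000 UMIs, and the ratio without this cell was not computed.

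**Figure D4:**
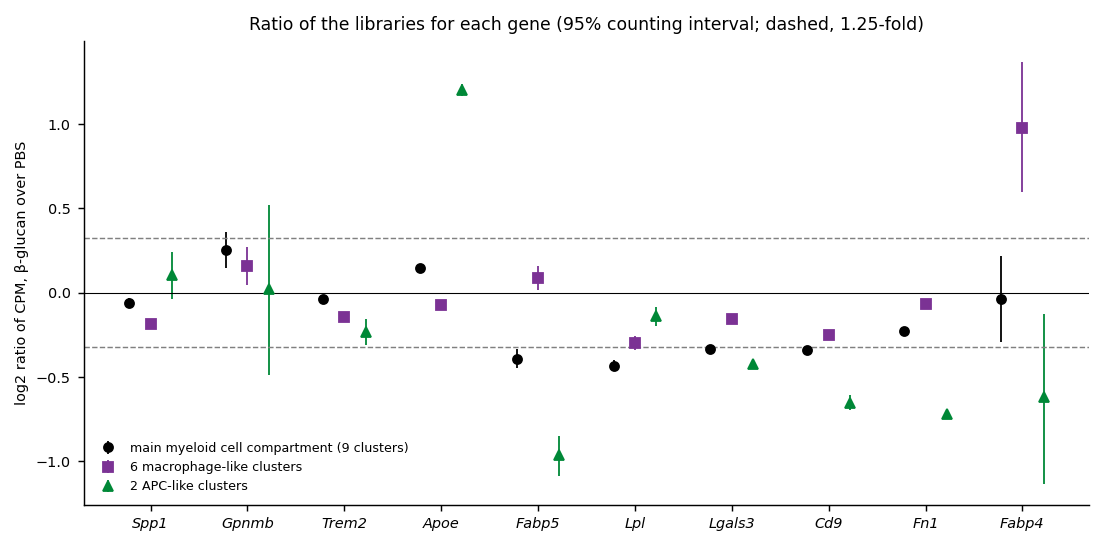
Log2 ratio of CPM (β-glucan over PBS) of each gene in the main myeloid cell compartment (circles), the 6 macrophage-like clusters (squares) and the 2 APC-like clusters (triangles), with 95% counting intervals and dashed lines at 0.32 and -0.32. *Lpl*, *Fabp5*, *Cd9* and *Lgals3* lay below the lower line in the compartment, and *Apoe* and *Fabp5* lay on opposite sides of 0 in the APC-like and the macrophage-like clusters.

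*Lpl* and *Trem2* were lower with β-glucan in each of the 8 compartment clusters with at least 100 cells per library, as were 5.22% of 9762 genes, while 7.18% were higher in each of the 8. In the 6 macrophage-like clusters alone, 8.28% of genes were lower in each. *Lpl* was at 110 against 173 CPM in cluster 1 (log2 ratio -0.65) and at 46.5 against 64.6 CPM in cluster 2 (-0.47). It was between -0.22 and -0.17 in clusters 0, 3, 5 and 9, -0.09 in cluster 4 and -1.65 in the shallow cluster 7. In cluster 9 the counting intervals of *Lpl* (-0.35 to 0.0001) and *Trem2* (-0.14 to 0.06) included 0. *Trem2* lay between -0.29 and -0.04 in all 8, but in cluster 4 this rested on cells that a finer clustering found in the PBS library only, without which it was 237 against 211 CPM (0.17). In both libraries *Lpl* was still seen in many cells: 43.8% (β-glucan) and 53.1% (PBS) of macrophage-like cells had a UMI, or 20% and 24.1% when cells were thinned to 2000 UMIs, where lymphoid cells had 4.05% and 4.39%. *Cd9* was lower in 7 and *Lgals3* in 7 of the 8 clusters.

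*Gpnmb* was higher with β-glucan in 5 of the 6 macrophage-like clusters, but not in the cluster that held most of it. Cluster 5 had 34 and 19.1 CPM (213 and 103 UMIs, log2 ratio 0.83, 0.48 to 1.18). Cluster 0 had 68.4 and 74.5 CPM (-0.12, -0.26 to 0.01). In cluster 5 the 5 cells with most *Gpnmb* held 31% and 28.2% of its UMIs. The intervals of cluster 1 (-0.12 to 0.95) and cluster 3 (-0.23 to 0.65) included 0. In cluster 9, 5 cells held 71.4% of the 70 β-glucan UMIs. The share of cells with a UMI was lower with β-glucan in clusters 9 (10.5% and 13.7%) and 1 (5.4% and 6.1%). It was higher in clusters 2 (9.8% and 9.5%), 3 (10.0% and 9.8%) and 5 (15.1% and 12.9%).

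*Spp1* had no common direction. It was lower with β-glucan in clusters 0, 2, 3, 7 and 9, among macrophages most in cluster 9 at 657 against 906 CPM (-0.46), and higher in clusters 1, 4 and 5. In cluster 9, 5 of 139 PBS cells held 52.4% of the *Spp1* UMIs (23.4% with β-glucan), and the share of cells with a UMI was 64.6% and 56.8%, higher with β-glucan. In cluster 5 it was 161 against 114 CPM (0.50). In cluster 1, a log2 ratio of 1.77 came from 527 (β-glucan) and 117 (PBS) UMIs, of which the 5 highest cells held 57.9% and 40.2%. The share of cluster 1 cells with an *Spp1* UMI was 7.95% and 8.55%. The ratio in cluster 1 therefore rested on a few cells.

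**Figure D5:**
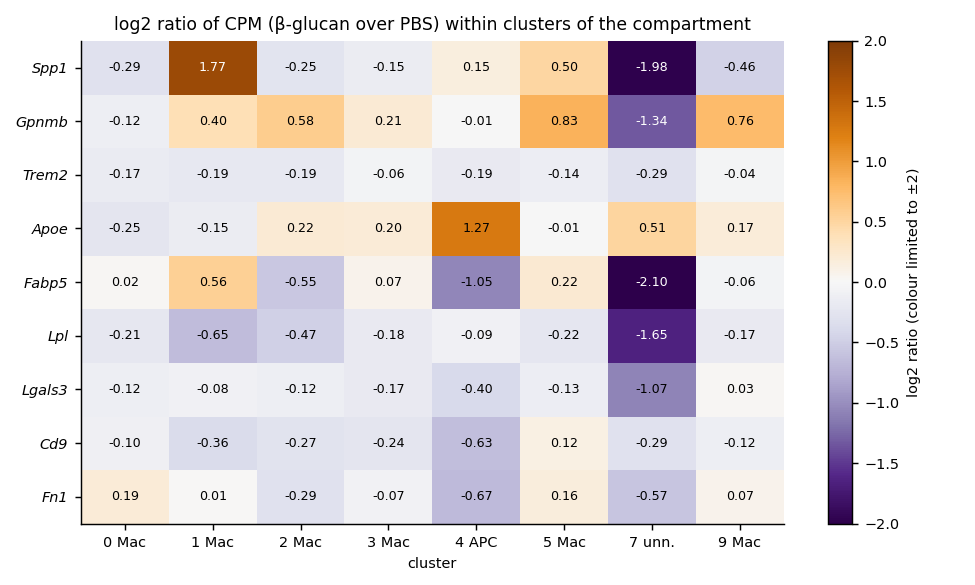
Log2 ratio of CPM (β-glucan over PBS) of 9 genes within the 8 compartment clusters of at least 100 cells per library, with the value in each cell and colour limited to ±2. *Lpl* and *Trem2* were below 0 in every column, whereas *Spp1* ran from -1.98 in cluster 7 to 1.77 in cluster 1.

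In the APC-like cluster 4, *Apoe* was higher with β-glucan, at 1777 against 735 CPM (log2 ratio 1.27), and *Fabp5* was lower, at 83.8 against 174 CPM (-1.05). The 5 highest cells held 27.9% and 32.5% of these *Apoe* UMIs and 24.4% and 26.5% of those of *Fabp5*. The share of cells with an *Apoe* UMI was 65.4% and 56.2%, higher with β-glucan. *Fn1* had 1852 and 2946 CPM (-0.67) and *Cd9* had 724 and 1124 CPM (-0.63), and *Lpl* differed little at 482 and 513 CPM (-0.09). The *Apoe* levels in cluster 4 lay on either side of the level in lymphoid cells, which itself rested on few cells. Free RNA was not tested as a part of the cluster 4 levels. In a finer clustering, 150 PBS cells and 0 β-glucan cells formed a cluster led by *Arg1*, *Slc7a2* and *Retnla*, of which 149 were in cluster 4. These cells had 5220 CPM *Fn1*, 3610 CPM *Lgals3*, 1709 CPM *Cd9* and 182 CPM *Fabp5*. Without them, cluster 4 had a log2 ratio of -0.19 for *Fn1* and -0.33 for *Cd9*, while *Apoe* at 1.19 and *Fabp5* at -1.02 changed little. In the compartment without them, *Lpl* alone of the 10 genes kept a log2 ratio beyond 0.32, at 227 against 299.7 CPM. With 1 library per group, the PBS treatment and that library cannot be told apart as the source of these cells.

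Cluster 7, the unnamed *Chil3* and *Ly6c2* cells, had lower levels of several genes with β-glucan. *Spp1* was at 118 and 464 CPM (log2 ratio -1.98), *Lpl* 137 and 430 CPM (-1.65), *Fabp5* 17.8 and 76.6 CPM (-2.10) and *Lgals3* 864 and 1808 CPM (-1.07). *Apoe* was higher, at 3195 and 2246 CPM (0.51). The cells were shallow, with a median of 4547 and 3817.5 UMIs, and 5 of 248 PBS cells held 44.2% of the *Spp1* UMIs and 33.6% of those of *Lpl*. The cluster held at most 4.39% of the compartment's UMIs of the 9 genes other than *Fabp4*, and without it the compartment's *Spp1* log2 ratio was -0.02.

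The other genes of these pathways were mostly near 0. Of 23 measured genes that are described in lipid-associated macrophages but are not among the 10, 11 were higher and 12 lower in the trained library (median log2 ratio -0.02). By at least 0.32, 2 were lower, *Itgax* at 16.9 and 38.9 CPM (-1.20) and *Mmp12*. Of all genes with at least 5 CPM, 57.7% were higher, and 3.09% were lower by that size. *Mmp12*, a macrophage elastase, had 7.61 and 45.5 CPM (-2.58). Its level was 135 CPM in cluster 4 and at most 10.8 CPM in the other compartment clusters. It was also a leading gene of the 150 cells that a finer clustering found in the PBS library only. The cathepsin gene *Ctsb* had 1890 and 1753 CPM, the legumain gene *Lgmn* 1155 and 1027 CPM, the galectin gene *Lgals1* 1075 and 1113 CPM and the fatty acid transporter *Cd36* 930 and 786 CPM (0.24).

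Counts of higher genes in the following lists stand beside the 57.7% of all genes that were higher. Receptors of osteopontin and fibronectin had 5 of 7 measured genes higher, with a median of 0.04. *Cd44* had 935 and 1080 CPM (-0.21), the integrin genes *Itgb1* 529 and 523 CPM and *Itga4* 254 and 246 CPM, and *Itgb5* 200 and 160 CPM (0.33), the only one of the 7 beyond 0.32. Of the 11 genes of Trem2 signalling, 6 were higher and 5 lower (median 0.05). Its adaptor *Tyrobp* had 1042 and 1085 CPM, the kinase *Syk* 292 and 273 CPM, the phosphatase *Inpp5d* 621 and 679 CPM, *Pik3ap1* 167 and 124 CPM (0.43) and the membrane gene *Ms4a4a* 63.6 and 88.4 CPM (-0.48).

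Lipoprotein partners and receptors had 6 of 7 genes higher and none beyond 0.32 (median 0.07). The Apoe receptor *Lrp1* had 778 and 740 CPM, *Apobr* 57.8 and 56.9 CPM and the scavenger receptor *Scarb1* 36.9 and 32.2 CPM. Sterol sensing and efflux had 6 of 9 genes higher (median 0.06), with the exporter *Abca1* at 521 and 483 CPM, *Abcg1* at 98 and 107 CPM, and the lysosomal sterol carriers *Npc2* at 702 and 714 CPM and *Npc1* at 130 and 119 CPM. Lipid storage and fatty acid handling had 9 of 16 genes higher (median 0.04). Among them the nuclear receptor gene *Pparg* had 36.3 and 25 CPM (0.54), the lipid droplet coat gene *Plin2* 166 and 146 CPM, the lysosomal lipase *Lipa* 160 and 154 CPM, and *Dgat2*, an enzyme of triglyceride synthesis, 11.2 and 14.5 CPM (-0.38).

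Relatives of *Lgals3*, *Fabp5* and *Cd9* were nearer to 0 for the most part. Of the galectins, 2 of 5 measured genes were higher, with *Lgals9* at 89.6 and 82.3 CPM beside the lower *Lgals3*. Of the fatty acid binding proteins, 2 of 9 listed genes were measured, *Fabp5* and *Fabp3*, the latter at 9.63 and 10.3 CPM. Of the tetraspanins, 12 of 14 were lower, most of them little (median -0.04), with *Cd81* at 203 and 273 CPM (-0.43), *Cd63* at 567 and 548 CPM, *Cd53* at 335 and 341 CPM and *Tspan4* at 70.4 and 65.8 CPM. The family lists hold *Lgals3*, *Fabp5* and *Cd9* themselves.

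Markers of other cells and the span of genes moved with the libraries too, and their part in the ratios was not tested. In the compartment, the 7 measured genes of the APC list were all lower with β-glucan, and the 9 genes of that list summed to 7295 against 11009 CPM. The 6 genes of the osteoclast list summed to 137 against 200 CPM, with 3 measured genes lower, and stress and immediate-early genes summed to 1034 and 1010 CPM. The 4 measured genes of the stromal list were all higher with β-glucan, and the list summed to 32.8 against 27.6 CPM (log2 ratio 0.25). In stromal cells themselves that list summed to 53647 and 44020.5 CPM, and *Gpnmb*, highest there, had 172 and 155 CPM. In the compartment *Gpnmb* had 24.7 and 20.7 CPM (0.25). The 4 measured neutrophil genes were also higher, at 61.2 against 50.5 CPM for the list (0.28). The median log2 ratio was -0.06 over genes spanning under 10 kb and 0.06 over genes of 30 to 100 kb. *Spp1*, *Trem2*, *Apoe* and *Fabp5* span under 10 kb, and the ratios of *Spp1* and *Trem2* lay near the median of genes of that span. *Lpl* (75.5 kb as annotated), *Cd9* (34.6 kb) and *Fn1* (67.7 kb) belong to the longer class and were on the other side of 0 from its median. *Gpnmb* (34.4 kb, log2 ratio 0.25) belongs to the same class and was on the same side as its median. The canonical transcript of *Lpl* starts inside the annotated gene, so its own span is shorter. The place of *Lpl* in the longer class, and its side of 0 beside that median, hold for the annotated gene only.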

How the data were processed

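The authors deposited counts of UMIs per gene and barcode for each library, made with Cell Ranger 7.0.0 on GRCm39 with Ensembl 104 genes, after cell calling and without normalization (the processing notes also list mm10). Totals were 81611849 UMIs over 7196 barcodes with β-glucan and 73874602 over 5760 with PBS. Seurat 5.3.0 (R 4.3.3, sctransform 0.4.2) rebuilt clusters on the merged libraries, without integration (30 principal components, 20 neighbours, resolution 0.7), since an assignment of cells by the authors was not used here. Names needed at least 3 markers in 25% of cells. Scrublet (scanpy 1.11.5) marked 0 and 2 cells and so did not work on these data. Doublets remain in.

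CPM are a gene's UMIs per 1000000 over summed cells, with exact Poisson intervals. Ratios have exact conditional binomial intervals and shares Clopper-Pearson intervals (scipy 1.17.1). PCR duplicates were removed by UMI, and all intervals cover counting error only. A library is 1 sample of 4 pooled mice, so no test was run, and a log2 ratio of at least 0.32 stands in for a call. The code was tested on simulated counts. Levels of different genes were not compared. Coordinates and promoters came from GRCm39 with GENCODE M39. The 10 genes and all lists were chosen with earlier results of these data known. Named genes were the 10 genes, from each list the 3 of highest mean CPM and those of highest and lowest ratio, and for each of the 10 the 3 or 5 genes of highest r (at least 0.2). *Itgax* was named besides, as a gene of its list beyond 0.32. Alternatives changed the cell filter, doublets, clustering, cells counted, weighting, scaling (TMM, edgeR 4.0.16), depth and the minimum CPM. One named gene of the lipoprotein list and 1 promoter are not reported here.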

Additional observations from a re-analysis of the deposited data

Results flagged for a closer look

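The pooled ratios of *Apoe* and *Fabp5* lay on opposite sides of 0 in the macrophage-like and the APC-like cells. The log2 ratio of *Apoe* (β-glucan over PBS) was -0.073 in macrophage-like and 1.20 in APC-like clusters, and that of *Fabp5* was 0.087 and -0.96. In the APC-like cluster 4, the 5 highest cells held 27.9% and 32.5% of the *Apoe* UMIs and 24.4% and 26.5% of those of *Fabp5*. In cluster 0, 1 of 1043 β-glucan cells held 257 of 2000 *Fabp5* UMIs, and the 5 highest cells held 20.25% (15.9% with PBS). The macrophage-like *Fabp5* ratio came from 3611 and 2738 UMIs. Its side of 0 may rest on this cell, and the ratio without the cell was not computed. Single macrophage-like clusters went both ways: *Apoe* was higher with β-glucan in 3 of 6 and *Fabp5* in 4 of 6. With 1 library per group the difference between the cell classes was not tested. Barcodes that the filter had left out, 1500 with β-glucan and 1207 with PBS, carried UMIs of the 10 genes: 0.422% of their UMIs with β-glucan and 0.441% with PBS, where kept cells had 0.964% and 1.01%.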

How the results depend on the processing

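No paired analysis was possible because each group has 1 library. Over 19 alternatives, of which 5 were chosen after seeing the data, the 10 genes kept a median below 0, and the 4 of 10 with a log2 ratio beyond 0.32 became 1 with macrophage-like clusters alone (the gene past it there being *Fabp4* at 1.84 to 3.62 CPM), 2 with cells thinned to 5000 UMIs, 2 without cluster 4 (*Lpl*, and *Fabp4* at 0.47) and 1 without the cells of a single library. The median log2 ratio of -0.14 was -0.22 with no filter on cells, -0.20 with the genes kept in the clustering, -0.26 with all cells of the sort, -0.11 in macrophage-like clusters alone, -0.23 with equal weight per cell, -0.21 with equal weight per cluster, -0.17 with thinned cells, -0.11 without the cells of a single library, -0.17 without cluster 9 and -0.11 without cluster 4. *Fabp5* reversed to 0.087 in macrophage-like clusters alone and to 0.072 without cluster 4. Both values include the single β-glucan cell of cluster 0 with 257 *Fabp5* UMIs, so their side of 0 may rest on it. *Lpl* kept its direction in all 19 and stayed beyond 0.32 in 18, with a range of -0.55 to -0.30. *Apoe* was below 0 in 2 of the 19, and TMM scaling moved each ratio by -0.02. *Lgals3* stayed beyond 0.32 in 12, *Cd9* in 14 and *Fabp5* in 15 of the 19. Among the 19, leaving out the cells called by Scrublet removed only 0 and 2 cells, so that alternative could hardly move a value. *Spp1* reached -0.39 with equal weight per cluster, and *Gpnmb* came to 0.0015 with equal weight per cell, 0.05 with equal weight per cluster and 0.04 with thinned cells. The cluster in which *Spp1*, *Fn1*, *Lgals3*, *Cd9* and *Fabp5* were highest changed with the resolution, and the level of each gene by cluster holds for this clustering only. The median of the lipid-associated list was 0.03 with a minimum of 50 CPM, that of the fatty acid binding proteins was -0.099 with a minimum of 1 CPM and -0.39 with 50 CPM, and that of lipid storage was 0.17 with 50 CPM. The cause was not tested. Leaving out a replicate was not possible. The ratios have no replicate error.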

Other observations

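In neutrophils, which lay outside the compartment, *Apoe* had 5183 CPM with β-glucan and 2082 CPM with PBS, and *Spp1* had 183 and 80.0 CPM. The median depth of these cells was 9527.5 and 4560.5 UMIs, the macrophage list summed to 7750 and 4470 CPM in them and the neutrophil list to 21664 and 43079 CPM. The part of these in the *Apoe* and *Spp1* levels was not tested.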
